A study of Homo sapiens with 12 samples.

Results

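The genes described here are 10 that set how much glucose enters a cell and how it is broken down: the transporter genes SLC2A1, SLC2A2 and SLC2A3, and the enzyme genes HK1, HK2, PFKL, PFKFB3, PKM, LDHA and PDK1. They were chosen by name as 10 of the 26364 rows of the gene count table, with earlier results of these data known. All 10 had enough reads to be tested. RNA was sequenced from HepG2 cells, an unmodified human liver cancer line that carries many hepatocyte functions, grown in EMEM with 10% FBS. The 10 libraries make 5 groups of 2 replicates, labelled by time after insulin stimulation as 0, 5, 10, 30 and 240 min. The treatment note is the same for all 10 libraries, with 16 h in EMEM followed by 5 min of 3 nM insulin in EMEM with BSA, so that the time of each library rests on its title. The labels do not say whether replicates were separate cultures, and p-values measure only the spread between these libraries. None of the libraries is labelled as kept for 240 min without insulin, so that insulin and time in the medium cannot be told apart. A single ChIP-seq library for the insulin receptor (IR) in HepG2 cells, with its input, both labelled with 3 nM insulin, completes the series. The treatment texts of the RNA and ChIP libraries may have been exchanged, so that the insulin dose of the time course is uncertain.

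Glucose enters a cell by facilitated diffusion through proteins of the SLC2A (GLUT) family. It is then trapped as glucose 6-phosphate by a hexokinase, committed to glycolysis by phosphofructokinase and converted to pyruvate, which either becomes lactate or enters the mitochondrion through pyruvate dehydrogenase. Normal hepatocytes carry mostly GLUT2 (SLC2A2), whereas growing and cancer cells carry mostly GLUT1 (SLC2A1), hexokinase 2 and the PKM products.

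Read totals over genes ran from 18347109 (240 min replicate 2) to 45005769 (0 min replicate 2). The 7 hepatocyte markers were abundant, with mean levels over the 10 libraries from 439 TPM (a share of all transcripts, corrected for transcript length) for TTR to 19643 TPM for ALB. Of 5 markers of other cell types, the leukocyte gene PTPRC had no reads in any library, CDH5 and DCN did not pass the filter on low counts, and PECAM1 and COL1A1 stood below 3 CPM (reads of a gene scaled to the total of its library). ALB was lower in 30 min replicate 2 and 240 min replicate 2, at 14438 and 13892 CPM, than in the other 8 libraries, and the part of this in the results was not tested. RPLP0, a ribosomal protein gene used as a reference in qPCR, was lower at 240 than at 0 min with -0.17 on the log2 scale (edgeR, adjusted p = 0.00754). Levels below are CPM after TMM scaling unless TPM is named. CPM compares a gene with itself across libraries and TPM compares genes with each other, and both are shares of a library, so that a change in total RNA per cell is not seen.

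At 240 min of insulin 7 of the 10 genes had changed from 0 min, against 41.0% of all 13852 genes tested (edgeR quasi-likelihood test, Benjamini-Hochberg adjusted p under 0.05). SLC2A1, SLC2A3, HK2, PFKFB3 and PDK1 rose, 5 of 10 where 20.6% of all genes rose. SLC2A2 and PFKL fell, 2 of 10 where 20.4% of all genes fell, and HK1, PKM and LDHA did not pass the test. The median log2 fold change of the 10 genes was 0.29, beside -0.0026 over all genes tested, and the median of the absolute values was 0.42 beside 0.20. As the 10 were chosen with earlier results of these data known, these comparisons with all genes describe the list and do not test it. Scaling by the ERCC spike-ins (synthetic RNAs added to each library) moved the median over all genes by -0.12. It left 2 of the 10 called, SLC2A2 and SLC2A3, beside 1059 of all 13852 genes. Without 0 min replicate 2, the deepest library, HK2, PFKL and PFKFB3 no longer passed, and fewer of all genes tested were called.

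None of the 10 genes changed at 5, 10 or 30 min by edgeR, where 0%, 0.137% and 0.332% of all genes did. DESeq2 called none of those to which it gave an adjusted p, which were 3 of the 10 at 5 min and 8 at 10 and at 30 min. At an unadjusted p under 0.05 the numbers of the 10 were 3, 3 and 2, beside 1976, 710 and 1125 of all 13852 genes tested. Against 30 min in place of 0 min, the libraries at 240 min again differed in 7 of the 10 genes, against 38.2% of all genes. Of the 7 genes, 5 were higher and 2 lower. With ERCC scaling 3 of the 10 differed, beside 917 of all 13852 genes. The comparisons with 0 min share the 0 min libraries and those of 240 min share the 240 min libraries, so their values stand side by side and are not independent of each other. Both libraries at 240 min lay outside the range of the other 8 libraries in 6 of the 10 genes, above it for SLC2A1, SLC2A3, HK2, PFKFB3 and PDK1 and below it for SLC2A2, against 44.7% of all genes tested.

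**Figure D1:**
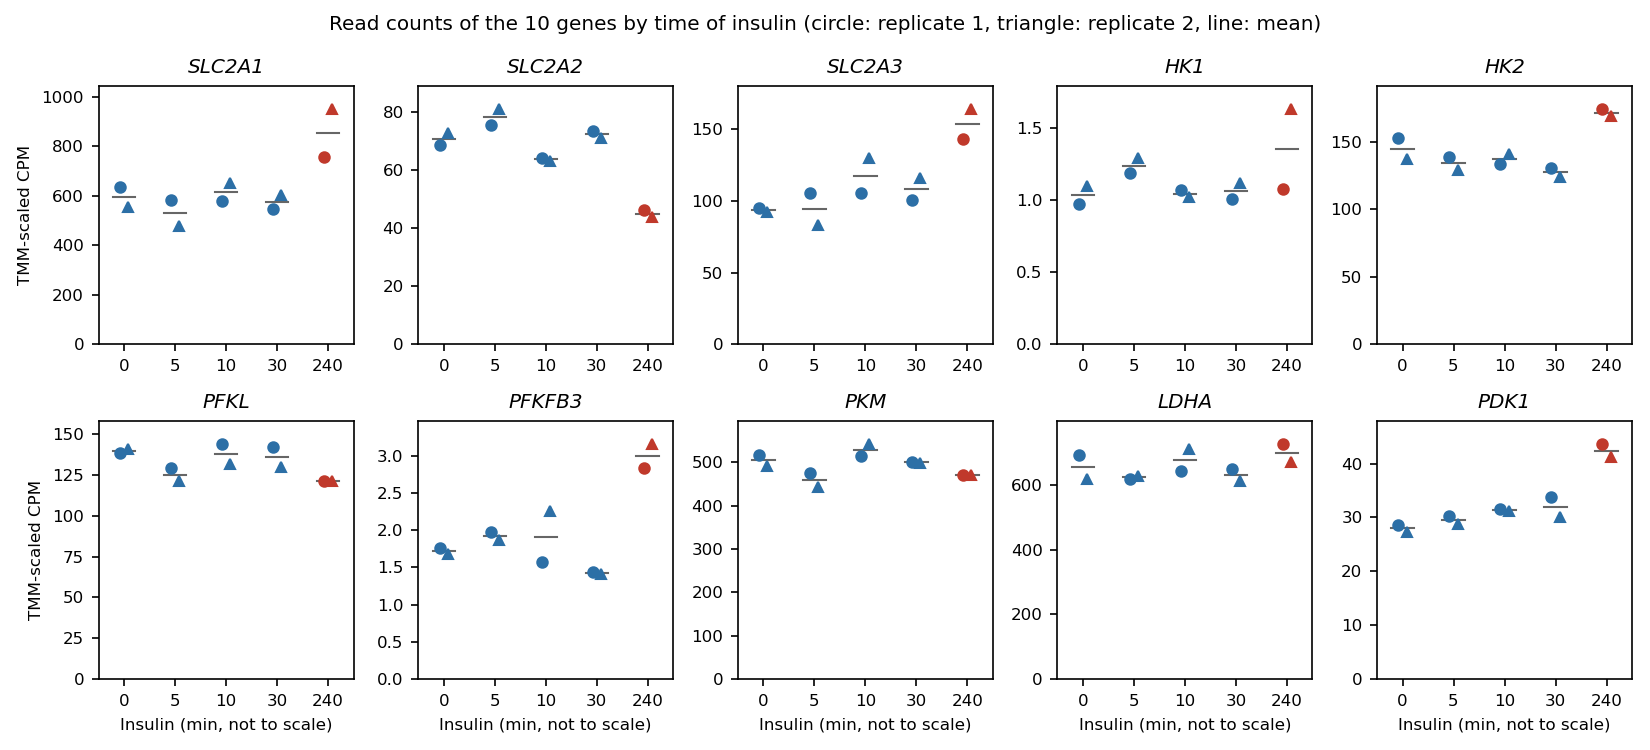
TMM-scaled CPM (y axis, from 0) of each of the 10 genes at 0, 5, 10, 30 and 240 min of insulin (x axis, not to scale), with replicate 1 as a circle, replicate 2 as a triangle, the mean of the 2 as a line and 240 min in red. The red points lie above all blue points for SLC2A1, SLC2A3, HK2, PFKFB3 and PDK1, and below them for SLC2A2, where they stand at 46.2 and 43.7 CPM.

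In length-corrected levels, LDHA was the highest of the 10 genes, with a mean of 917 TPM over the 10 libraries (861 to 1006), ahead of PKM at 508 TPM (453 to 548) and SLC2A1 at 430 TPM (320 to 662). LDHA ranked 111, PKM 219 and SLC2A1 273 among the 13852 genes tested. PFKL followed at 112 TPM, SLC2A3 at 88.9, HK2 at 54.4, SLC2A2 at 47.4 and PDK1 at 19.2 TPM. PFKFB3 and HK1 were close to the floor, at 1.09 and 0.723 TPM. Neighbours in this order overlapped in range for PKM and SLC2A1, PFKL and SLC2A3, SLC2A3 and HK2, HK2 and SLC2A2, and PFKFB3 and HK1, while LDHA and PKM, SLC2A1 and PFKL, SLC2A2 and PDK1, and PDK1 and PFKFB3 did not overlap. SLC2A1 was below PKM in 8 of the 10 libraries and above it at 240 min, with 516 and 662 TPM against 488 and 500 TPM.

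**Figure D2:**
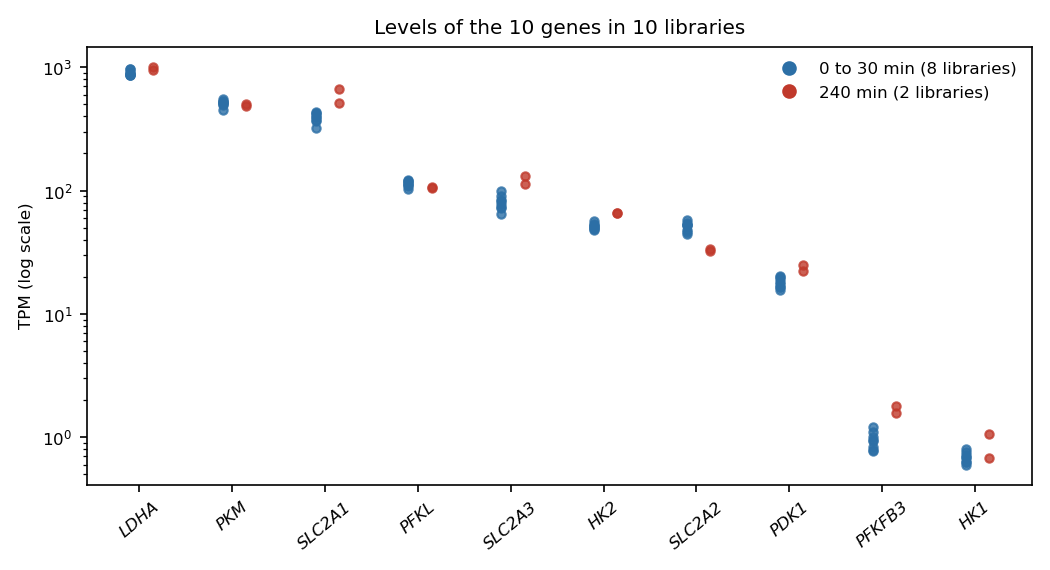
TPM (y axis, log scale) of the 10 genes in each of the 10 libraries, ordered by their mean, with the 8 libraries of 0 to 30 min in blue and the 2 of 240 min in red. The levels run from LDHA at a mean of 917 TPM to HK1 at 0.723 TPM, and the red points leave the blue range upwards for SLC2A1, SLC2A3, HK2, PFKFB3 and PDK1 and downwards for SLC2A2.

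SLC2A1 (chr1:43391046-43424847, minus strand, hg19 as for all gene positions here) encodes GLUT1, the transporter of basal glucose uptake in most cells. Its libraries stood at 635 and 555 CPM (0 min), 581 and 477 (5 min), 578 and 651 (10 min), 545 and 603 (30 min) and 756 and 949 (240 min). Both libraries at 240 min were above all others, and the 4 earlier times overlapped one another. On average the level went from 595 ± 56.3 CPM at 0 min (SD, n = 2) to 852 ± 137 CPM (SD, n = 2) at 240 min, a 1.43-fold rise or 0.52 ± 0.0968 (standard error) on the log2 scale (edgeR, adjusted p = 0.000269). Against 30 min the log2 fold change was 0.57 (adjusted p = 0.000111, edgeR). Without 240 min replicate 2, the higher of the pair, the rise from 0 min was 0.34 (adjusted p = 0.00866, edgeR), and with ERCC scaling it was 0.39 and did not pass (adjusted p = 0.216).

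SLC2A2 (chr3:170714137-170744768, minus strand) encodes GLUT2, the low-affinity transporter of hepatocytes and beta cells. The libraries of the 5 times gave 68.5 and 72.8 CPM (0 min), 75.5 and 80.9 (5 min), 64.3 and 63.1 (10 min), 73.5 and 71.2 (30 min) and 46.2 and 43.7 (240 min). The libraries at 240 min were the lowest of the 10, with no overlap with any earlier time. The mean fell from 70.7 ± 3.05 CPM at 0 min (SD, n = 2) to 44.9 ± 1.75 CPM (SD, n = 2) at 240 min, a level 0.635 times that at 0 min, or -0.66 ± 0.0575 (standard error) on the log2 scale (edgeR, adjusted p = 4.74e-08). This was the lowest adjusted p of the 10 genes. The call held in every alternative run, also with ERCC scaling (log2 fold change -0.77, adjusted p = 0.00228, edgeR). At 5 min SLC2A2 was above 0 min in both libraries and at 10 min below it in both, with log2 fold changes of 0.14 and -0.15 that did not pass the test (adjusted p = 0.286 and 0.735, edgeR).

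Of the 10 genes 1, SLC2A2, had an IR ChIP-seq peak in its body or within 5 kb of it, near the share of all genes tested, 15.7%. The peak, chr3:170719913-170720344 in hg19, lies in intron 7 of 9 by the authors' annotation, with its centre 24640 bases from the start of the gene, and also inside ENSG00000286856, a gene on the plus strand. Its score was 40, rank 1477 of 1971 peaks whose median score was 79, and the nearest gene in the authors' annotation was RNU1-70P. The list comes from 1 IR ChIP library, so this peak has no replicate. For the other 9 genes the nearest peaks were farther away, at 46.6 kb from HK2 and 76.8 kb from SLC2A1 and 254 kb or more from the other 7. The central 300 bases of the SLC2A2 peak (chr3:170719979-170720278) and the 250 bases before its RefSeq start (chr3:170744510-170744759), both read from GRCh37 on the minus strand, are shown because SLC2A2 is the gene of the 10 with both a peak and a fall.

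IR peak in SLC2A2: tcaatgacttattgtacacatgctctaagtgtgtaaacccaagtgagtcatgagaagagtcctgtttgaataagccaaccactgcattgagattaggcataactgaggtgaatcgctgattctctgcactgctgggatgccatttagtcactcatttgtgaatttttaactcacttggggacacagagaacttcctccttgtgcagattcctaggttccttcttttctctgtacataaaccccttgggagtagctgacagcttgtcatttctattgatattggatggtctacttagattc
SLC2A2 promoter: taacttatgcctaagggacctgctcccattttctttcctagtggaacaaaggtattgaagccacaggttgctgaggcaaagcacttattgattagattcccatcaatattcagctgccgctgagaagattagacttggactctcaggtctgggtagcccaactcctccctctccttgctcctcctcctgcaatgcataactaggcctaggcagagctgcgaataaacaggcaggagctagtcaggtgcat

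These letters and the 250 bases before the RefSeq starts of the other genes were searched on both strands for ACGTG, the core of the hypoxia response element, CACGTG, an E-box that contains ACGTG, and GTAAACA, the forkhead core. RefSeq starts of GRCh38.p14 were used for 9 of the 10 genes, with SLC2A3 not among them, and each window was placed on GRCh37 by its exact match. Neither SLC2A2 sequence holds any of the 3 motifs. GTAAACA was in 0 of the 19 windows of the 9 genes and in 2.98% of 35093 windows of all genes. ACGTG was in 5 of the 19 windows, of HK2, PDK1, PFKFB3 and LDHA, and in 18.5% of all windows, and CACGTG in 3 of the 19 and in 6.34% of all windows. A match describes letters only and no binding was measured at them.

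SLC2A3 (chr12:8071824-8088892, minus strand) encodes GLUT3, the high-affinity transporter best known from neurons. Its 10 libraries gave 94.9 and 92.7 CPM (0 min), 106 and 82.9 (5 min), 105 and 130 (10 min), 101 and 116 (30 min) and 144 and 164 (240 min). The libraries at 240 min were the highest, and 10 min replicate 2 came closest to them. The mean rose from 93.8 ± 1.59 to 154 ± 14.4 CPM (SD, n = 2 each), which was 1.64-fold or 0.71 ± 0.0979 (standard error) on the log2 scale (edgeR, adjusted p = 1.06e-05). With ERCC scaling it was 0.59 (adjusted p = 0.0284, edgeR). Against 30 min the log2 fold change was 0.51 (adjusted p = 0.000407, edgeR), and with ERCC scaling that comparison did not pass (adjusted p = 0.0716). At 10 min both libraries were above both of 0 min, by 0.33 on the log2 scale, which did not pass after adjustment (edgeR, adjusted p = 0.518). That difference passed where low counts were not filtered (adjusted p = 2.81e-06, edgeR) and with only the libraries of 0 and 10 min in the model (adjusted p = 0.0491, edgeR). Over all genes, the unfiltered run called 74 of 20553 and the run of 0 and 10 min alone 40 of 13470, beside 19 of 13852 in the main run. With ERCC scaling the difference of SLC2A3 turned to -0.02. SLC2A14, a near-identical copy of SLC2A3, rose at 240 min as well (log2 fold change 0.48, adjusted p = 0.000922, edgeR), and reads from the 2 genes are hard to tell apart.

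Within the 14 SLC2A genes, SLC2A1 made up 60.5 ± 1.90% of the summed TPM at 0 min and 65.6 ± 1.87% at 240 min (SD, n = 2 each). The share of SLC2A2 went from 7.69 ± 0.877% to 3.70 ± 0.629% and that of SLC2A3 from 11.2 ± 0.489% to 13.6 ± 0.474%. The ratio of SLC2A1 to SLC2A2 in TPM was 5.56 to 9.69 in the 8 libraries of 0 to 30 min, and 15.5 and 20.5 at 240 min, with no overlap. Of the other 11 SLC2A genes 9 were tested, and at 240 min 2 of them rose and 2 fell, beside 41.0% of all genes called. SLC2A4, the insulin-responsive transporter of muscle and fat, rose by 0.30 (adjusted p = 0.0403) and SLC2A14 as above, while SLC2A12 fell to 0.436 times its level (log2 fold change -1.20, adjusted p = 0.0118) and SLC2A9, a urate transporter, fell by 0.38 on the log2 scale (adjusted p = 0.000348, edgeR). SLC2A12 was scarce, with 10 to 73 reads a library. Its libraries at 0 min stood apart from each other, at 0.742 and 1.64 CPM, and both at 240 min were below both of these.

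The hexokinases phosphorylate glucose in the cytosol. HK2 (chr2:75059782-75120481, plus strand), an isoform of muscle and of tumours, stood at 152 and 137 CPM (0 min), 139 and 129 (5 min), 134 and 141 (10 min), 130 and 124 (30 min) and 174 and 169 (240 min). Both libraries at 30 min were below and both at 240 min above those at 0 min. The mean went from 145 ± 10.8 CPM at 0 min (SD, n = 2) to 172 ± 3.19 CPM (SD, n = 2) at 240 min, a 1.19-fold rise (log2 fold change 0.25, standard error 0.0560, adjusted p = 0.0014, edgeR). Against 30 min the rise was 1.35-fold (log2 fold change 0.43, adjusted p = 6.67e-06, edgeR), while the difference of 30 from 0 min, -0.18, did not pass (adjusted p = 0.327, edgeR). The rise from 0 min did not pass with ERCC scaling (log2 fold change 0.13, adjusted p = 0.739) or without 0 min replicate 2 (0.17, adjusted p = 0.0616), and the rise from 30 min did not pass with ERCC scaling (0.44, adjusted p = 0.153).

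The 250 bases before a RefSeq start of HK2, chr2:75062047-75062296 in GRCh37 on the plus strand, hold 2 copies of CACGTG, in capitals. They are shown as the window of a gene that rose. Another HK2 window, chr2:75061004-75061253, holds 2 copies of ACGTG and 0 of CACGTG and is not shown. Both windows lie inside the span of HK2 given above.

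HK2 promoter: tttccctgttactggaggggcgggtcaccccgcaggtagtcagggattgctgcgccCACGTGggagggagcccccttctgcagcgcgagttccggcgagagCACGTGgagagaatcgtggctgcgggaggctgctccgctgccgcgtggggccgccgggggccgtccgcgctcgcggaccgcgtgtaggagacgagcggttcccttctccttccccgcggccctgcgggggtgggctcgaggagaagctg

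HK1 (chr10:71029756-71161637, plus strand), the hexokinase of most tissues, was the scarcest of the 10. It had 21 to 49 reads a library, from 0.974 CPM in 0 min replicate 1 to 1.63 CPM in 240 min replicate 2, while 240 min replicate 1 stood at 1.08 CPM. The 2 replicates at 240 min were farther apart than the lowest and highest of the other 8 libraries, and the difference of 240 from 0 min was not detectable at this depth (log2 fold change 0.33, 95% interval -0.23 to 0.89, adjusted p = 0.348, edgeR). HK2 made up 65.8 ± 0.847% of the summed hexokinase TPM at 0 min and 70.0 ± 1.25% at 240 min (SD, n = 2 each). HKDC1, the hexokinase domain-containing gene, made up nearly all of the rest, from 33.4 ± 0.732% to 29.1 ± 0.981%, and its own log2 fold change of -0.04 did not pass the test (adjusted p = 0.689, edgeR). HK3 had 0 or 1 reads in every library.

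Phosphofructokinase catalyses the committed step of glycolysis, and PFKL (chr21:45719917-45747264, plus strand) encodes its liver subunit. The 2 libraries of each time gave 138 and 141 CPM (0 min), 129 and 121 (5 min), 144 and 132 (10 min), 142 and 130 (30 min) and 121 in both (240 min). The libraries at 240 min were below both at 0 min but overlapped 5 min. The mean went from 140 ± 1.58 to 121 ± 0.0389 CPM (SD, n = 2 each), 0.869 times the level at 0 min (log2 fold change -0.20, standard error 0.0554, adjusted p = 0.00652, edgeR). This fall did not pass on TPM with limma (-0.16, adjusted p = 0.0943 to 0.136), with ERCC scaling (-0.32, adjusted p = 0.321) or without 0 min replicate 2 (-0.19, adjusted p = 0.0519). Against 30 min it was -0.16 (adjusted p = 0.0252, edgeR) and did not pass without 30 min replicate 1 (-0.10, adjusted p = 0.275), 240 min replicate 1 (adjusted p = 0.0864) or 240 min replicate 2 (adjusted p = 0.0728). It also did not pass with upper quartile scaling, thinning, limma on TPM or ERCC scaling (-0.14 to -0.15, adjusted p = 0.0501 to 0.782). PFKL made up 93.6% to 95.2% of the summed TPM of PFKL, PFKM and PFKP in every library.

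PFKFB3 (chr10:6186843-6277507, plus strand) encodes one of 4 enzymes that make or break fructose 2,6-bisphosphate, the strongest activator of phosphofructokinase. Replicates 1 and 2 stood at 1.76 and 1.68 CPM (0 min), 1.98 and 1.87 (5 min), 1.57 and 2.26 (10 min), 1.44 and 1.41 (30 min) and 2.84 and 3.16 (240 min). The highest values were those of 240 min and the lowest those of 30 min. These are 29 to 75 reads a library, so that counting error weighs more here than in the other genes that changed. Means were 1.72 ± 0.0560 CPM at 0 min and 3.00 ± 0.224 CPM at 240 min (SD, n = 2 each). The log2 fold change at 240 min was 0.80 ± 0.204 (standard error, edgeR, adjusted p = 0.00404), the largest of the 10, which is 1.74-fold with a 95% interval of 1.29 to 2.34. Against 30 min it was 1.06 (adjusted p = 0.000821, edgeR), 2.09-fold. The call from 0 min did not pass with ERCC scaling (0.68, adjusted p = 0.125) or without 0 min replicate 2 (0.75, adjusted p = 0.0525).

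PFKFB3 was a small part of its family, 3.25 ± 0.0640% of the summed TPM at 0 min and 4.85 ± 0.175% at 240 min (SD, n = 2 each). PFKFB4 rose by 0.54 (adjusted p = 0.000115) and PFKFB2 by 0.27 on the log2 scale (adjusted p = 0.00889), and PFKFB1, the liver isoform, fell by 0.34 (adjusted p = 0.0379, edgeR). The share of PFKFB4 went from 25.1 ± 0.311% to 31.3 ± 0.337% and that of PFKFB1 from 30.3 ± 2.00% to 20.5 ± 0.380%. TIGAR, which breaks down fructose 2,6-bisphosphate, rose by 0.40 (adjusted p = 0.0015, edgeR).

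PKM (chr15:72491370-72523727, minus strand) encodes the pyruvate kinases M1 and M2, which form pyruvate in the last step of glycolysis. Its libraries stood at 517 and 492 CPM (0 min), 475 and 443 (5 min), 514 and 541 (10 min), 501 and 499 (30 min) and 471 and 471 (240 min). The libraries at 240 min were below both at 0 min and overlapped those at 5 min. Between means of 505 ± 17.3 and 471 ± 0.557 CPM (SD, n = 2 each), the log2 fold change at 240 min of -0.10 did not pass the test (95% interval -0.21 to 0.01, adjusted p = 0.128, edgeR). Of the summed TPM of PKM and PKLR, the gene of liver pyruvate kinase, PKM made up 95.7 ± 0.210% at 0 min and 95.4 ± 0.609% at 240 min (SD, n = 2 each). Counts by gene do not separate M1 from M2.

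LDHA (chr11:18415936-18429765, plus strand) encodes the lactate dehydrogenase subunit that favours lactate. The libraries of the 5 times gave 694 and 621 CPM (0 min), 620 and 630 (5 min), 645 and 714 (10 min), 650 and 613 (30 min) and 727 and 672 (240 min). Ordered by their means, each time overlapped with the next. From 657 ± 51.7 to 699 ± 39.0 CPM (SD, n = 2 each), the log2 fold change at 240 min was 0.09 (95% interval -0.04 to 0.22, adjusted p = 0.260, edgeR) and turned to -0.03 with ERCC scaling, which does not pass either. Against 30 min it was 0.15 (adjusted p = 0.0702, edgeR), and it passed without 240 min replicate 2 (0.20, adjusted p = 0.0352), with upper quartile scaling (0.17, adjusted p = 0.036) and with low counts kept (0.15, adjusted p = 0.0155). LDHB, the other widely used subunit, had 0 or 1 reads in every library and was listed at 0 TPM. LDHA and PKM both have processed pseudogenes in the genome, so a part of their reads may have been dropped or shared in counting.

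The 250 bases before a RefSeq start of LDHA (chr11:18415860-18416109 in GRCh37, plus strand) are shown beside those of HK2, since they hold the same motif while the level did not pass the test. Capitals mark 2 copies of CACGTG and 1 further copy of the ACGTG core, read here from the opposite strand.

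LDHA promoter: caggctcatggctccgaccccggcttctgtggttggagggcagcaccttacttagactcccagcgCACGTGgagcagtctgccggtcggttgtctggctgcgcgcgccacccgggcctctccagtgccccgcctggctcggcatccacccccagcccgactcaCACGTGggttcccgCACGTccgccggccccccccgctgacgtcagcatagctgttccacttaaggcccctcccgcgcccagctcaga

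PDK1 (chr2:173420101-173490351, plus strand) encodes a kinase that inactivates pyruvate dehydrogenase and so holds pyruvate in the cytosol. Its 10 libraries gave 28.7 and 27.3 CPM (0 min), 30.4 and 28.7 (5 min), 31.5 and 31.1 (10 min), 33.8 and 30.1 (30 min) and 43.6 and 41.2 (240 min). The libraries at 240 min were above the other 8, and 10 and 30 min overlapped. In CPM the means followed the order of the times, but in TPM they did not (17.5, 16.0, 20.2, 18.4 and 23.7), and with ERCC scaling 10 min stood below 0 min at -0.16 on the log2 scale. The mean rose from 28.0 ± 0.969 CPM at 0 min (SD, n = 2) to 42.4 ± 1.70 CPM (SD, n = 2) at 240 min, 1.52-fold (log2 fold change 0.61, standard error 0.0688, adjusted p = 1.11e-06, edgeR). At 30 min it stood 0.20 above 0 min on the log2 scale, which did not pass after adjustment (edgeR, adjusted p = 0.420). Against 30 min the rise was 0.40 (adjusted p = 0.000122, edgeR). With ERCC scaling the rise from 0 to 240 min was 0.48 and did not pass (adjusted p = 0.101), nor did that from 30 min (0.42, adjusted p = 0.204). PDK1 made up 26.2 ± 0.0024% of the summed TPM of the 4 PDK genes at 0 min and 34.1 ± 1.62% at 240 min, while PDK2 went from 63.8 ± 0.877% to 54.2 ± 1.46% (SD, n = 2 each).

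**Figure D3:**
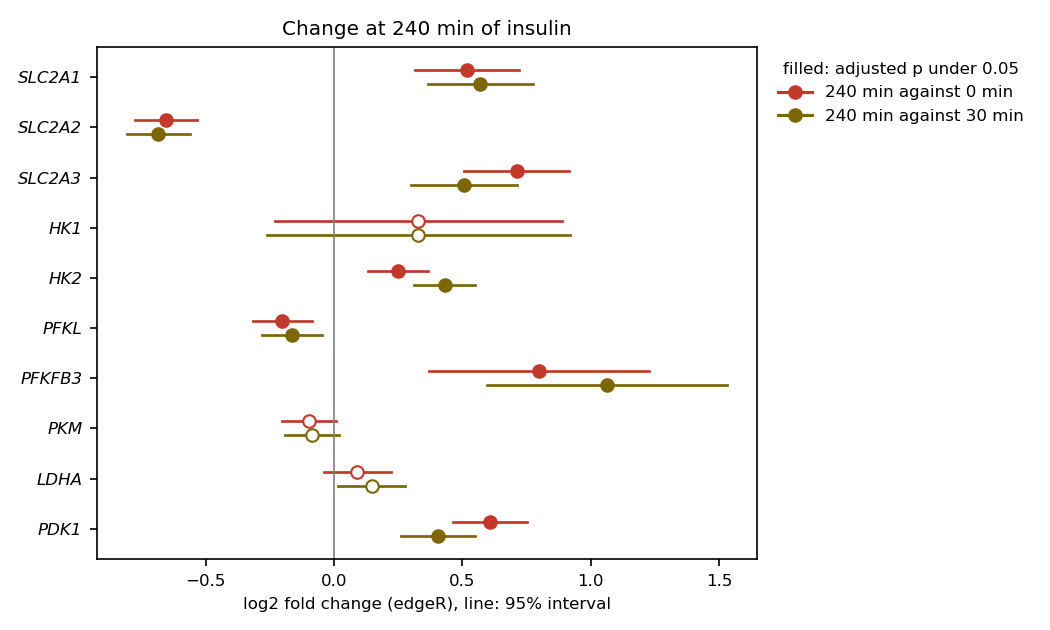
Log2 fold change by edgeR (x axis) of the 10 genes (y axis) at 240 min against 0 min (red) and against 30 min (olive), with lines for the 95% interval and filled points for an adjusted p under 0.05. Both comparisons share the 240 min libraries, and in both SLC2A2 and PFKL are filled points below 0, and HK1, PKM and LDHA are open points.

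Most of the other glycolysis genes did not pass the test at 240 min. Of 25 other glycolysis genes 22 were tested, and 3 rose (PFKFB4, TIGAR and PFKFB2) and 2 fell (GCKR and PFKFB1), beside 41.0% of all genes called. The median over the 22 was -0.02 on the log2 scale and the median absolute value 0.09. GCKR fell by 0.34 (adjusted p = 0.002, edgeR). None of the enzymes between phosphofructokinase and pyruvate kinase passed, GAPDH standing at -0.02, PGK1 at -0.07 and ENO1 at 0.05. With ERCC scaling none of the 22 passed, beside 1059 of all 13852 genes.

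Of 15 genes of pyruvate and lactate use 14 were tested, and 4 rose and 3 fell, 7 of 14 beside the 41.0% of all genes called at 240 min. PDP2, a phosphatase that reactivates pyruvate dehydrogenase against the PDK enzymes, went from 45.5 and 41.2 CPM at 0 min to 82.4 and 77.8 CPM at 240 min, with no overlap. Its rise of 0.90 ± 0.0619 (standard error) on the log2 scale (edgeR, adjusted p = 2.97e-09) was the largest of the list, beside 0.61 for PDK1, whose product acts on the same complex in the opposite direction, and the difference of these was not tested. DLAT, an enzyme subunit of that complex, rose by 0.24 (adjusted p = 0.000647) and MPC1, a subunit of the mitochondrial pyruvate carrier, by 0.21 (adjusted p = 0.0452), as did DLD by 0.14 (adjusted p = 0.0208), named here after its value was seen. PDK2 fell by 0.21 (adjusted p = 0.015), the lactate transporter gene SLC16A1 by 0.19 (adjusted p = 0.00359) and PDHX by 0.16 (adjusted p = 0.0194, edgeR). ERCC scaling left 1 of the 14, beside 1059 of all 13852 genes.

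SLC2A1, SLC2A3, HK2, PFKFB3, LDHA and PDK1 are also known as genes that hypoxia induces. Values of 11 hypoxia-inducible genes outside glycolysis are given beside them. That list was chosen with earlier results of these data known, and a part of hypoxia in any change here was not tested. All 11 were tested, 0 rose and 4 fell at 240 min, where 20.6% of all genes rose and 20.4% fell, and the 4 of 11 called stand beside 41.0% of all genes. KDM3A, a histone demethylase, fell by 0.51 (adjusted p = 1.3e-07), the MAX partner MXI1 by 0.50 (adjusted p = 6.88e-05) and NDRG1 by 0.49 on the log2 scale (adjusted p = 1.2e-05, edgeR). P4HA1, a collagen prolyl hydroxylase named after its value was seen, fell by 0.27 (adjusted p = 0.000863, edgeR). VEGFA, at -0.01, and BNIP3, at -0.02, did not pass. Over the 11 genes 3 stood above 0 and 8 below, from -0.51 to 0.35 on the log2 scale, and none of those above 0 passed. At an unadjusted p under 0.05 edgeR gave the same 4 genes and no rise, beside 6751 of all 13852 genes tested.

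**Figure D4:**
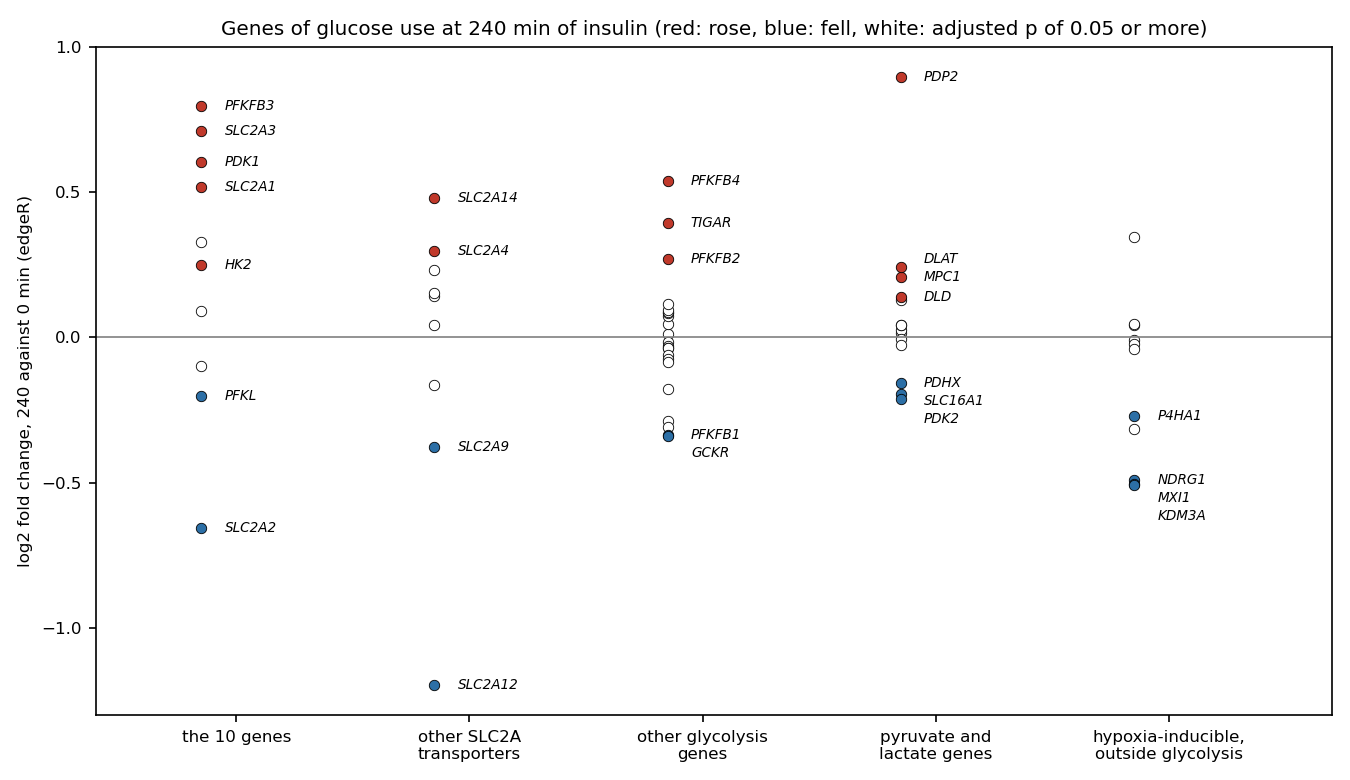
Log2 fold change at 240 against 0 min (y axis, edgeR) of each tested gene in 5 gene lists (x axis), red for genes that rose, blue for genes that fell and white for an adjusted p of 0.05 or more, with names for those that passed. The 10 genes spread from -0.66 (SLC2A2) to 0.80 (PFKFB3), most of the other glycolysis genes lie near 0, and the hypoxia-inducible genes outside glycolysis that passed lie below 0.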

How the data were processed

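The authors trimmed reads with Trim Galore 0.6.4, aligned them to hg19 with STAR 2.6.1d and counted them per gene with featureCounts 1.6.4, reverse-stranded, and the deposited table holds raw counts. The authors' StringTie files give TPM per gene, and their IR peak list gives a MACS2 2.2.7.1 peak score after BWA 0.7.17-r1188 alignment and HOMER annotation. The deposited protocol texts appear to be exchanged between the RNA and ChIP libraries. Here counts were tested with edgeR 4.0.16 in R 4.3.3 (TMM, filterByExpr with a minimum count of 10, quasi-likelihood test, all 10 libraries in 1 model without a replicate block, Benjamini-Hochberg over 13852 genes), and standard errors were taken from the F statistic. The 92 ERCC rows, 1.59% to 2.36% of counts, stayed out. Replicates differed beyond counting noise at every time (chi-square per degree of freedom 2.86 to 6.46). DESeq2 1.42.0, limma 3.58.1 on log2 TPM, other scalings and filters, thinning and leaving out each library were alternatives, and the fit was tested on simulated data. The members and lists were chosen with earlier results of these data known. Besides the 10 genes, up to 3 rises and 3 falls of largest size per list are named. Other genes are named outside this rule, among them DLD and P4HA1, and GAPDH, PGK1, ENO1, HKDC1, VEGFA and BNIP3, which did not pass. Peaks were assigned to gene bodies extended by 5 kb. Fold changes and intervals cover the spread of 2 replicates only.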

Additional observations from a re-analysis of the deposited data

How the results depend on the processing

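No log2 fold change of the 10 genes that passed the test turned its direction in any alternative. Of 1134 values recomputed for them with an adjusted p, 1104 kept their side of the threshold, 24 no longer passed and 6 newly passed. With no filter on low counts 1 of the 10 genes passed at 10 min and 1 at 30 min, in both cases SLC2A3. With only the times compared in the model 1 passed at 10 min, again SLC2A3. Over all genes the unfiltered run called 74 of 20553 at 10 min and 160 at 30 min, and the run of the times compared 40 of 13470 at 10 min. The main run called 19 and 46 of 13852. ERCC scaling gave 2 of the 10 at 240 against 0 min and 3 against 30 min. It gave 0 of the other glycolysis genes, 1 of the other SLC2A transporters and 1 of the pyruvate and lactate genes. Over all genes it gave 1059 against 5676 at 240 against 0 min, and 917 against 5297 at 240 against 30 min. It moved the median of all genes by -0.12 at 240 min, -0.33 at 10 min and -0.13 at 30 min, and 10 min replicate 2 had the largest spike-in share. Limma on log2(TPM + 1) and on log2(TPM + 0.1) gave 2 and 3 of the other glycolysis genes, and 2 and 2 of the other SLC2A transporters, for which DESeq2 and thinning to the smallest total also gave 2 each. Thinning gave 4 of the pyruvate and lactate genes. Over all genes these runs called 4217 and 4117 of 18379 (limma), 4430 of 13314 (DESeq2) and 5241 of 13500 (thinning).

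Leaving out 1 library at a time gave 4 to 7 of the 10 genes at 240 against 0 min, 6 to 7 against 30 min, 3 to 5 of the other glycolysis genes, 2 to 4 of the other SLC2A transporters and 3 to 7 of the pyruvate and lactate genes. The lowest number of the 10 genes, 4, came without 0 min replicate 2, and HK2, PFKL and PFKFB3 were those lost. The lowest numbers for the lists came without 0 min replicate 2 and, for the other glycolysis genes and SLC2A transporters, also without 240 min replicate 2, and without 240 min replicate 1 the pyruvate and lactate genes gave 4. Without 0 min replicate 2, and without either library of 240 min, fewer of all genes tested were called at 240 against 0 min as well. The lower numbers are therefore not particular to these lists. Each such fit leaves 1 library at that time, so the numbers describe the dependence on single libraries only. The cause of the lower numbers was not tested.

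For the peaks, 0 of the 10 genes had one among peaks scored above the median, or as the nearest gene in HOMER's annotation, which gave RNU1-70P. Deviations of libraries with the same replicate number correlated at -0.091 to 0.126 between times, which cannot show whether these libraries were paired. With a replicate block the 10 genes again gave 0, 0, 0, 7 and 7 calls, and all genes gave 5845 against 5676 at 240 min. Depth limits HK1, with 21 to 49 reads a library, and PFKFB3, with 29 to 75.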

Other observations

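PDP2, a pyruvate dehydrogenase phosphatase, was the only gene of the 5 glucose and hypoxia lists that passed the test before 240 min. Replicates 1 and 2 stood at 33.0 and 32.8 CPM at 30 min against 45.5 and 41.2 at 0 min, with no overlap, -0.39 on the log2 scale (edgeR, adjusted p = 0.00962), while 0.332% of all genes changed at that time. At 240 min it stood at 82.4 and 77.8 CPM, 1.28 on the log2 scale above 30 min (adjusted p = 2.87e-11, edgeR).

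Of the 11 hypoxia-inducible genes outside glycolysis, 4 had an IR peak within 5 kb of the gene body (BNIP3, KDM3A, MXI1 and VEGFA), beside 15.7% of all genes tested, 1 of the 10 genes, 1 of 25 other glycolysis genes (PFKM) and 0 of the other SLC2A transporters and of the pyruvate and lactate genes. Of those 4, KDM3A and MXI1 fell at 240 min and BNIP3 and VEGFA did not pass the test.

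The pattern most like that of PFKFB3 over the 10 libraries was that of ZBTB24 (22.5 CPM on average), followed by RARS (129 CPM) and TTL (122 CPM). Each was higher at 240 than at 0 min, by log2 fold changes of 0.56, 0.22 and 0.20 (adjusted p = 6.92e-06, 0.00235 and 0.00489, edgeR). They were ranked by Pearson correlation of log2 CPM, which the 240 min libraries, standing apart, weigh on.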
